A study of Rattus norvegicus with 3 samples.

Results

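The 9 genes described here serve the growth and upkeep of blood vessels, and they were examined in soleus of the rat, a hind limb muscle that works against gravity, consists mainly of slow fibres and has a dense capillary bed. They are the ligands Vegfa and Angpt1, the receptors Kdr, Flt1 and Tek, the endothelial adhesion genes Pecam1 and Cdh5, and the pericyte markers Cspg4 and Pdgfrb. Each was found on the array by its symbol, by 1 probe set each, among 14506 genes with a probe set of a single symbol. All 9 were bright enough to stand among the 10154 genes compared. RNA came from rats aged 7 weeks of a strain labelled Brown, and all of them were irradiated for 2 weeks, 50 mSv in all. Group DN had a denervated muscle besides, group TS hung by the tail, which takes the load off the hind limbs, and group Ct had the irradiation only. RNA of 6 rats was pooled per group and measured on 1 Affymetrix Rat Gene 1.0 ST array, so there were no replicates, no test was made, and differences describe these pools only. The series text speaks of only 2 arrays, while values of 3 samples were used here. No unirradiated group is among the samples used here.

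Vascular endothelial growth factor A, the product of Vegfa, is secreted by muscle fibres and other cells and drives the growth and survival of endothelial cells. It signals mainly through the receptor tyrosine kinase KDR, whereas FLT1 binds the ligand tightly and signals weakly, acting in part as a decoy. Angiopoietin 1, made largely by mural cells, activates TEK (Tie2) on endothelium and keeps vessels stable. Pericytes, the mural cells of capillaries, carry PDGFRB and the proteoglycan NG2, encoded by Cspg4, and are recruited by the PDGF-B that endothelium secretes. In skeletal muscle, contractile activity and oxidative metabolism are known to go with a high capillary density.

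Values are robust multi-array average (RMA) values on a log2 scale, on which a difference of 1 stands for a 2-fold difference. A gene was counted as higher or lower when it differed by at least 1.5-fold, which is 0.585 on this scale. Array medians over all probe sets were 6.33 in DN, 6.35 in TS and 6.32 in Ct. Over the compared genes the median of TS lay 0.13 above that of Ct, so differences with TS of this size have no settled sign. The summary method can return exactly equal values on different arrays, as it did for 42.9% of compared genes between DN and Ct, 24.7% between TS and Ct and 26.3% between DN and TS, and equality is therefore no sign that a gene did not differ. Muscle fibre markers were near the top of each array, with Myh7, the slow myosin, at 13.06 in DN, 13.24 in TS and 13.62 in Ct.

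Of the 9 genes, 4 were lower in DN than in Ct by at least 1.5-fold and none was higher, where 5.53% of all compared genes were lower and 4.93% higher. These were Vegfa, Kdr, Flt1 and Cspg4. In TS 2 genes, Vegfa and Kdr, were lower than in Ct and none was higher, where 2.68% of all compared genes were lower and 5.89% higher. The 9 had a median difference from Ct of -0.32 in DN and -0.27 in TS, where all compared genes had 0.00 and 0.02. Leaving out genes of equal value, 9.69% of compared genes were lower in DN and 3.56% in TS. The DN and TS differences share the Ct array, so they are not independent of each other.

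Sequence ahead of the start site is shown for the 4 genes that were lower in DN, which are also the 4 members found in the RefSeq promoter table (GRCr8). The stretches for Vegfa, Kdr and Cspg4 end at the last base before the annotated gene, and capitals mark the GC box, GGGCGG or CCGCCC on the other strand. For Flt1, whose annotated span begins ahead of its start site in the table, 30 bases are shown and the capitals mark a cyclic AMP response element, TGACGTCA.
Vegfa, chr9:22452604-22452853, plus strand: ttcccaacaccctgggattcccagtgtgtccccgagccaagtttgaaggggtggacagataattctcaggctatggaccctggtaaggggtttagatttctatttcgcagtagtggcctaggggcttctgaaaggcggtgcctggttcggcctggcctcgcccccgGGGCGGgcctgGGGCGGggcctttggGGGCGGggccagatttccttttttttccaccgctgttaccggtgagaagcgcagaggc
Kdr, chr14:32571813-32572030, plus strand: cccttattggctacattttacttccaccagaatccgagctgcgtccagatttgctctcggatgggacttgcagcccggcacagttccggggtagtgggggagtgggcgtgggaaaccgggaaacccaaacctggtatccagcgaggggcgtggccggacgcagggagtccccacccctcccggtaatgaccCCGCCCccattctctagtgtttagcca
Flt1, chr12:12333295-12333324, plus strand: gggggacccctTGACGTCActagaaggagg
Cspg4, chr8:66160692-66160941, plus strand: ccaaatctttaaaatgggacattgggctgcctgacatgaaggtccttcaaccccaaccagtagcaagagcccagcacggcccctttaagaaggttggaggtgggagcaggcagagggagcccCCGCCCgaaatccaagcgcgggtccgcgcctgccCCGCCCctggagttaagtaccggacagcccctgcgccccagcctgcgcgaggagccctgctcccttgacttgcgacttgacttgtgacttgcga
Within the 250 bases ahead of the start site the GC box was found 3 times for Vegfa, 3 times for Flt1, 2 times for Cspg4 and 1 time for Kdr, and 30.5% of 33469 such windows in the table hold at least 1. The response element of Flt1 begins at position -124 from the start site, and 1.59% of windows hold one. The core letters bound by hypoxia-inducible factors, ACGTG or GCGTG on either strand, were found 2 times for Kdr and 1 time for Flt1, against 36.7% of windows with at least 1, and not in these windows of Vegfa and Cspg4. Vegfa has a further, internal start site in the table, whose window holds none of these 3 motifs but 1 match to AAGGTCA, or TGACCTT on the other strand, the core letters read by estrogen-related receptors, at position -159, which 3.99% of windows hold and the other member windows do not. A TATA box, TATAAA or TTTATA on the other strand, was found 1 time for Flt1 and in none of the other member windows, against 12.9% of windows. The ETS core GGAA, read by the ETS factors of endothelium, was found 4 times for Vegfa, 4 times for Kdr and 3 times for Flt1, not in the window of Cspg4, and in 93.2% of all windows. These are matches of letters only.

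Vegfa read 9.76 in DN and 9.53 in TS, against 10.73 in Ct. Both DN and TS were low and Ct high. DN stood 1.96-fold below Ct (-0.97) and TS 2.29-fold below it (-1.20). Of 10154 compared genes, 242 had a lower difference than Vegfa in DN, and 40 had a lower one in TS. In TS it was the only member past 2-fold against Ct, where 0.689% of all compared genes were lower by that much and 1.37% higher. In DN no member was, where 2.24% were lower and 2.24% higher. DN minus TS was 0.22.

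**Figure D1:**
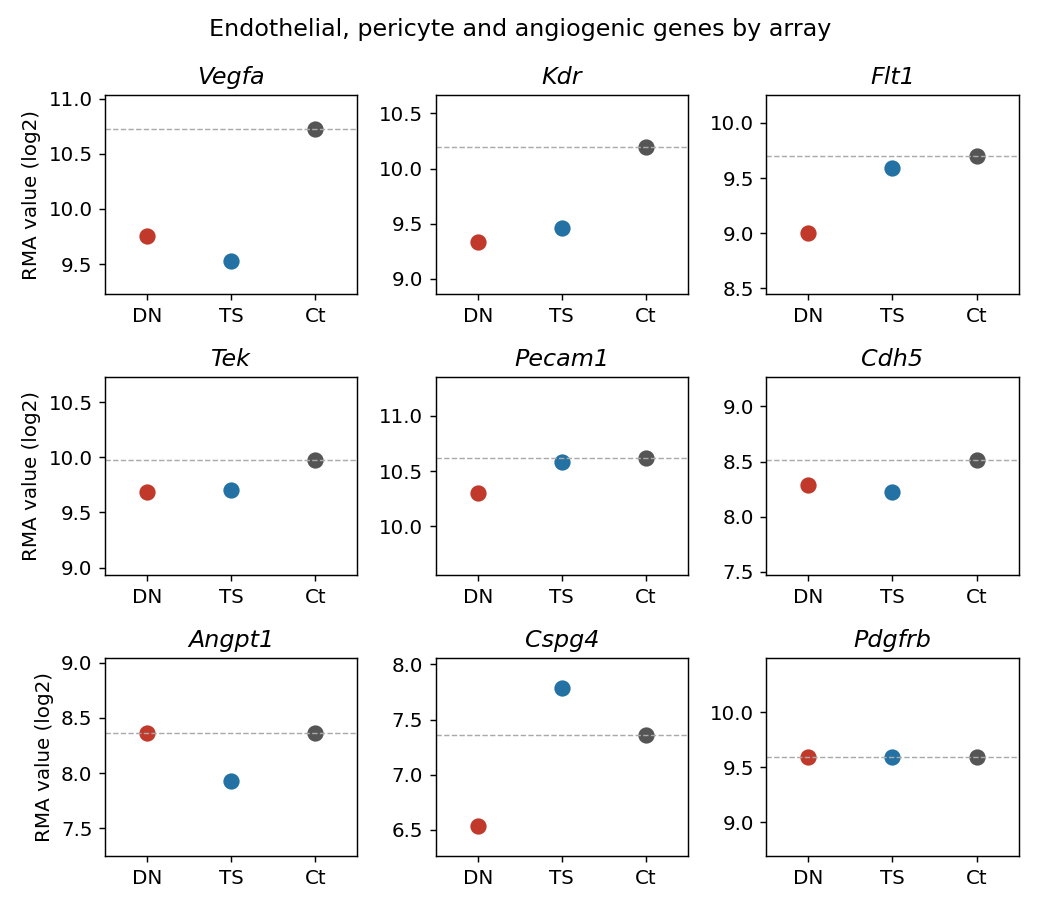
RMA value (log2, vertical axis) of each of the 9 genes on the arrays of DN, TS and Ct, 1 point for each array of pooled RNA. The dashed line marks the Ct value, and every panel spans the same range of 1.8. Vegfa and Kdr lie below the line in both DN and TS, Flt1 mainly in DN, and Cspg4 lies below it in DN and above it in TS.

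Other ligands of the family did not follow Vegfa as a block. Vegfb, a ligand of FLT1 that is abundant in oxidative muscle, read 8.99 in DN and 9.09 in TS, against 9.97 in Ct, with differences of -0.98 and -0.88. Vegfd, a ligand of the lymphatic receptor FLT4, went the opposite way and read 7.34 in DN and 7.50 in TS, against 6.23 in Ct, which is 2.16-fold and 2.42-fold higher. That Ct value lies below the Ct array median of 6.32 over all probe sets, so both folds rest on 1 low reading. Pgf, placental growth factor, read 7.42 in DN and 8.31 in TS, against 7.71 in Ct. Its TS minus Ct difference of 0.61 was past 1.5-fold as deposited and came to between 0.47 and 0.58 under other scalings. Of the 5 ligands, 2 were lower and 1 higher in DN, and 2 were lower and 2 higher in TS, with medians of -0.33 and -0.27.

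Kdr, the main signalling receptor for Vegfa, read 9.33 in DN and 9.46 in TS, against 10.20 in Ct. It was 1.82-fold lower in DN (difference -0.87) and 1.66-fold lower in TS (-0.73). DN and TS lay within 0.13 of each other and Ct stood above both. Flt1, the high-affinity receptor, read 9.002 in DN and 9.59 in TS, against 9.70 in Ct. DN alone was low for Flt1, at 1.62-fold below Ct (-0.70), while TS minus Ct was -0.11. The co-receptor Nrp1 had differences of -0.36 in DN and -0.43 in TS, short of 1.5-fold, and Nrp2 and the lymphatic receptor Flt4 had differences between -0.05 and 0.05. Of the 5 receptors and co-receptors, 2 were lower in DN and 1 in TS, with medians of -0.36 and -0.11.

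**Figure D2:**
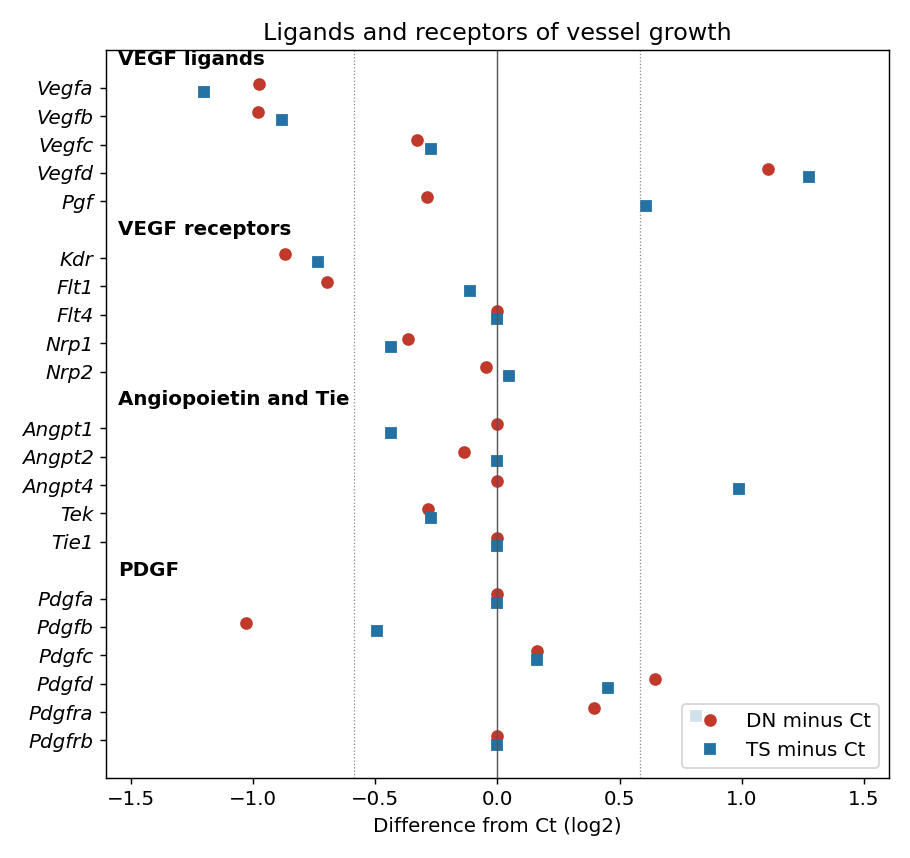
Difference from Ct (log2, horizontal axis) of ligands and receptors of the VEGF, angiopoietin and PDGF families, with circles for DN minus Ct and squares for TS minus Ct and 1 array behind each group. Dotted lines mark 1.5-fold. Vegfa, Vegfb and Kdr lie left of the limit in both, Vegfd lies right of it in both, and Pdgfb lies left of it in DN.

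In the angiopoietin system, 3 of the 5 genes measured had exactly the Ct value in DN, so the DN median of 0.00 rests on ties. Angpt1, the activating ligand, had the same value of 8.36 in DN and in Ct and read 7.93 in TS, a TS minus Ct difference of -0.44. TS was the low array, by 1.35-fold. Tek, its receptor, read 9.69 in DN and 9.70 in TS, against 9.97 in Ct. Both differences of Tek, -0.28 and -0.27, were short of 1.5-fold. Angpt2, which can oppose Angpt1 at TEK, had differences of -0.14 in DN and 0.00 in TS, and the related receptor Tie1 had the same value on all 3 arrays. Angpt4 was higher in TS than in Ct by 0.99, at 7.52 in TS and 6.53 in Ct, with the Ct value also in DN. That low value lies near the array medians over all probe sets, 6.32 in Ct and 6.33 in DN. None of the 5 genes was past 1.5-fold in DN and 1 was higher in TS, with medians of 0.00 in both.

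Pecam1, which encodes the adhesion molecule CD31 found at contacts between endothelial cells, read 10.30 in DN and 10.59 in TS, against 10.62 in Ct. Its differences of -0.32 in DN and -0.03 in TS were both short of 1.5-fold. Cdh5, which encodes VE-cadherin of the endothelial adherens junction, read 8.29 in DN and 8.22 in TS, against 8.52 in Ct. Its differences were -0.23 and -0.29. These general markers of endothelium thus lay closer to Ct than Kdr did in both groups.

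Of 26 endothelial markers measured, 21 read below Ct in DN, 2 above it and 3 equal to it. Lower by at least 1.5-fold were 3, namely Kdr, Flt1 and Esm1. In TS 16 read below Ct, 7 above it and 3 equal to it. Kdr and Esm1 were the 2 lower by at least 1.5-fold, and under some other scalings Cd34 was the third. Of the 7 above Ct, Esam (0.36) and Thbd (0.32) were the highest, and none was past 1.5-fold. Over all compared genes, 24.3% read below Ct in DN and 22.7% in TS, and 32.8% and 52.6% above it. Some of the 16 lie within 0.13 of Ct, such as Pecam1 (-0.03) and Flt1 (-0.11), and so have no settled sign. The 21 markers that are not among the 9 genes had a median difference of -0.18 in DN and -0.03 in TS. Esm1, a secreted proteoglycan of endothelial tip cells that VEGF is known to induce, read 9.27 in DN and 8.98 in TS, against 10.00 in Ct, with differences of -0.73 and -1.02. Cd34 had differences of -0.33 in DN and -0.55 in TS, and its TS value came to between -0.68 and -0.58 under other scalings. In these bulk samples, fewer endothelial cells and less RNA per endothelial cell cannot be told apart.

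Transcription factors of endothelium were mostly near Ct, with medians of -0.09 in DN and -0.01 in TS over 14 genes. Klf2 and Klf4, which blood flow is known to induce in endothelium and which other cells also express, were the 2 lower ones in both groups. Klf2 read 9.45 in DN and 9.96 in TS, against 10.63 in Ct, with differences of -1.18 and -0.67. Klf4 had differences of -0.95 in both groups, and its further probe set gave -1.15 and -1.12. Ets2 was higher, by 0.99 in DN and 0.66 in TS, and its TS value came to between 0.52 and 0.63 under other scalings. Sox17, a factor of arterial endothelium, had differences of -0.47 and -0.08. None of 8 Notch and ephrin genes of vessels was past 1.5-fold in either group, with medians of -0.04 and 0.00, and among them the VEGF-responsive Notch ligand Dll4 had differences of -0.30 and -0.20.

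Of the genes by which capillaries and the tissue around them take up fatty acids, 5 were measured. Cd36, a fatty acid transporter of endothelium and of muscle fibres, read 11.70 in DN and 11.18 in TS, against 12.29 in Ct, with differences of -0.59 and -1.11. Its further probe set gave -1.02 in both. Lpl, lipoprotein lipase, had differences of -0.43 and -0.90, and Gpihbp1, which holds that enzyme on capillary endothelium, of -0.47 and -0.36. Fabp4 and Meox2 had differences of -0.02 and 0.00 in DN, and of -0.43 and -0.35 in TS. Of the 5 genes, 1 was lower in DN and 2 in TS, with medians of -0.43 in both, and Cd36 in DN came within the limit under quantile normalization (-0.58), which leaves none lower in DN.

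Among the pericyte markers, Cspg4 set DN and TS apart. Cspg4 read 6.53 in DN and 7.79 in TS, against 7.36 in Ct. DN was the low array, 1.78-fold below Ct (-0.83), and TS the high one, 0.42 above Ct, which is short of 1.5-fold. DN minus TS was -1.25, a 2.38-fold lower value, and 99 of the compared genes had a lower difference. The DN value lies near the DN array median of 6.33 over all probe sets, so both of these DN differences rest on 1 low reading. Pdgfrb, the PDGF receptor of pericytes, had the same value of 9.59 on all 3 arrays.

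In DN minus TS, 2 of the 9 genes were lower by at least 1.5-fold and none was higher, Cspg4 and Flt1, where 5.93% of all compared genes were lower and 3.2% higher. Flt1 stood at the limit (-0.59), and under 4 other scalings it came to between -0.57 and -0.46, within the limit. Cspg4 came to between -1.25 and -1.02 under every alternative that kept it. The median of the 9 was -0.01, and the largest positive difference was that of Angpt1, at 0.44.

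**Figure D3:**
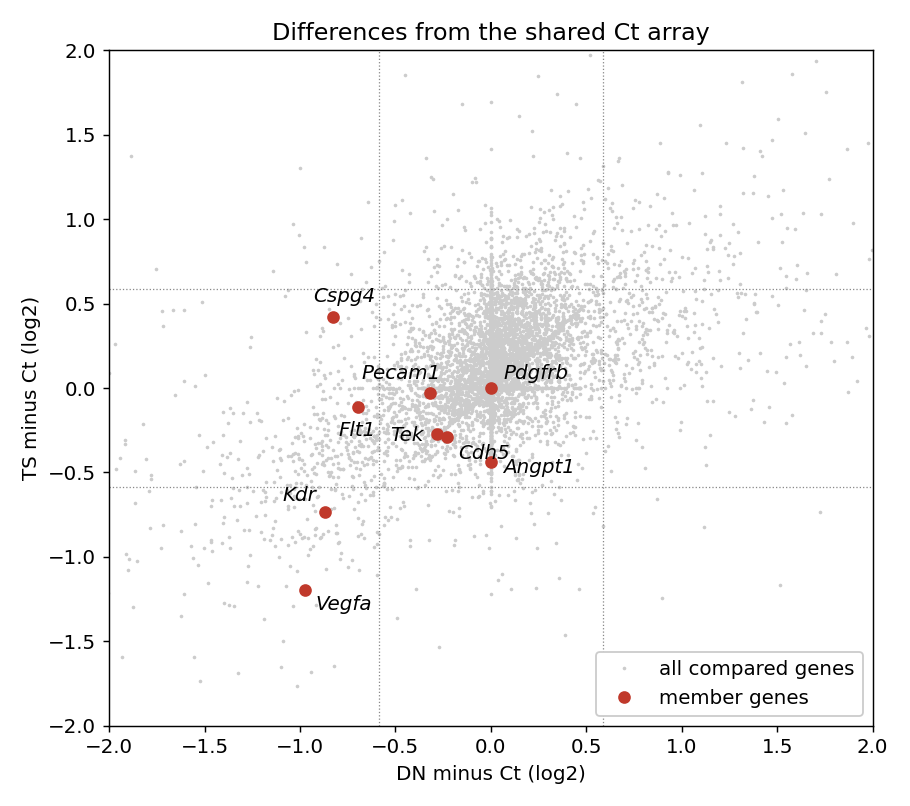
DN minus Ct (horizontal axis) against TS minus Ct (vertical axis), both log2, for all compared genes in grey and the 9 genes in red, with dotted lines at 1.5-fold. Both axes use the same Ct array, and 104 genes lie beyond the axes at 2. Vegfa and Kdr lie past the limit on both axes, and Flt1 and Cspg4 on the horizontal axis only.

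The other pericyte markers were mixed. Of 10 measured, with Cspg4 and Pdgfrb included, 3 were lower in DN. Besides Cspg4 these were the potassium channel subunit Kcnj8, with differences of -0.87 in DN and -0.34 in TS, and vitronectin (Vtn), with -0.67 and -0.28. Of the 8 that are not among the 9 genes, 6 read below Ct in DN, 1 above it and 1 equal to it. Of these 6, Notch3 (-0.03), Higd1b (-0.06) and Cox4i2 (-0.01) lay close to Ct. In TS 5 of the 8 read below Ct, 1 above it and 2 equal to it, and the medians of the 8 were -0.05 in both groups. Notch3 and Higd1b had the same differences in TS, where values of that size have no settled sign. Over all compared genes, 24.3% read below Ct in DN and 22.7% in TS. Abcc9, equal to Ct in both groups, gave -0.14 in both with its further probe set. Rgs5, an abundant pericyte transcript, had differences of -0.22 and -0.18. None of the 10 was past 1.5-fold in TS, and the medians of the 10 were -0.05 in DN and -0.02 in TS. Higd1b was below the filter limit of 5.72. Pdgfb, the endothelial ligand for PDGFRB, read 7.89 in DN and 8.42 in TS, against 8.92 in Ct, 2.04-fold lower in DN (-1.03), with -0.49 in TS that came to between -0.63 and -0.52 under other scalings. Pdgfd, a further ligand for PDGFRB, was higher in DN by 0.65 and read 0.45 above Ct in TS. Of the 6 PDGF genes, 1 was lower and 1 higher in DN and none was lower and 1 higher in TS, the last being Pdgfra (0.81), a receptor of fibroblast-like cells.

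Of 8 markers of smooth muscle, the contractile cell of larger vessels, 2 were lower in DN and none was past 1.5-fold in TS, with medians of -0.35 and 0.00. Myocd, the coactivator of smooth muscle genes, had differences of -0.88 in DN and -0.24 in TS, Tagln, an actin-binding protein, of -0.60 and -0.17, and the smooth muscle myosin Myh11 of -0.57 and 0.00. Acta2 and Lmod1 had the same values in DN and in Ct, and Smtn and Cald1 had DN differences of -0.17 and -0.18.

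Basement membrane genes of vessels, of which 5 were measured, had medians of 0.00 in DN and 0.10 in TS, and the TS median came to between -0.03 and 0.08 under other scalings. The laminin chain Lama5 was the 1 past the limit, higher in DN by 0.88. The list drawn up as inhibitors of angiogenesis had medians of 0.09 and 0.02 over 6 genes, with the protease and VEGF-binding inhibitor Adamts1 lower in DN (-1.05) and close to Ct in TS (-0.04). Vash2 read 10.83 in DN and 10.02 in TS, against 8.07 in Ct, 6.79-fold and 3.87-fold higher. Vash2 has been described as promoting rather than inhibiting vessel growth, and it encodes an enzyme that trims tubulin, so its place on that list is not a statement of its role. Thbs1, thrombospondin, had differences of -0.09 and 0.34.

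Regulators of Vegfa differed between DN and TS in their distance from Ct. In mouse muscle cells the coactivator PGC-1alpha, encoded by Ppargc1a, is known to raise Vegfa through the nuclear receptor ERRalpha, and hypoxia-inducible factors do so when oxygen is low. Of 18 regulators measured, 5 were lower in DN, at a list median of -0.45, and none was higher. Under other scalings 5 or 6 were lower in DN. In TS 1 was lower and 1 higher, with a median of 0.00. Egln3, which marks hypoxia-inducible factors for breakdown, was among the 5 in DN and was the 1 higher in TS. The list thus mixes genes of opposite action, and its counts and medians carry no single direction for Vegfa. Egln1 had differences of -0.58 and -0.21, and its further probe set gave -0.70 and -0.73. Ppara, a receptor for fatty acids, read 6.83 in DN and 7.52 in TS, against 8.11 in Ct, with differences of -1.28 and -0.59. Esrra, the gene of ERRalpha, read 7.86 in DN and 8.57 in TS, against 8.76 in Ct, with -0.90 and -0.18, and Esrrg had -0.76 and -0.32. Ppargc1a had differences of -0.56 and -0.13 and Hif1a of -0.54 and -0.30, all short of 1.5-fold as deposited. For Vegfa itself TS was the lower of DN and TS, by 0.22. Whether these regulators play a part in the Vegfa values was not tested.

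Egln3, a hydroxylase that marks hypoxia-inducible factors for breakdown and is itself induced by hypoxia, read 9.93 in DN and 11.26 in TS, against 10.51 in Ct. DN lay at -0.59, at the edge of 1.5-fold, and TS at 0.75. Of 10 hypoxia target genes measured, 1 was lower in DN, Pdk1 (-0.99), and 1 was higher in TS, Ldha (0.67), with medians of 0.01 and 0.13. Ldha in TS came to between 0.54 and 0.77 under other scalings, within 1.5-fold when centred on the compared genes. Ankrd37 and Car9 are counted though under the filter limit. The 8 above it had TS medians between 0.13 and 0.23 under other scalings. The further probe set of Ldha gave 0.51 in DN and 1.35 in TS. Bnip3 had differences of -0.55 and -0.39, with -0.75 and -0.44 for its further probe set, which in DN is past 1.5-fold, and Kdm3a of 0.09 and 0.56.

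Ppargc1a, Hif1a, Egln1, Acta2, Lmod1, Smtn, Cald1, Meox2, Higd1b, Tie1 and Flt4 were named after their values were seen. So were Esam, Thbd, Notch3, Cox4i2, Abcc9, Ankrd37 and Car9. Likeness to a member was taken as distance in the pair of differences from Ct. Uncharacterised loci, olfactory and vomeronasal receptors and microRNA genes were passed over. Among the rest, the genes most like Vegfa were Calhm5, Myadml2, Xpo4, Oxnad1 and the mitochondrial carnitine carrier Slc25a20, at distances of 0.10 to 0.17. Those most like Kdr were Inhba, Pdhx of the pyruvate dehydrogenase complex, Hadhb of fatty acid oxidation, Ndufs1 of respiratory complex I and Coq5 of coenzyme Q synthesis, at 0.01 to 0.07. Those most like Cspg4 were Rrad, Lpin1, Lix1, Cep85l and Bcat2, at 0.05 to 0.10. This likeness rests on 3 arrays, and how often other patterns among the 10154 genes have neighbours as close was not measured.

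Markers of other cells moved between the pools as well, and their part in the results above was not tested. Lymphatic markers had medians of 0.11 in DN and 0.37 in TS over 6 genes, with the lymphatic factor Prox1, which muscle fibres also express, lower in both (-0.72 and -0.60) and Lyve1, shared with macrophages, higher in TS (0.84). None of 10 macrophage markers was past 1.5-fold in DN and 4 were higher in TS, and the mean of the list was 9.04 in DN, 9.44 in TS and 8.86 in Ct. Under other scalings 2 or 3 of these 4 stayed past the limit. Of 6 adipocyte markers 4 were higher in DN and 4 in TS, and their mean was 8.57 in DN, 8.24 in TS and 7.28 in Ct, with Adipoq 4.29-fold and 3.08-fold higher.

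None of 6 muscle fibre markers was past 1.5-fold in TS and 1 was lower in DN, Ckm (-1.12), the muscle creatine kinase, which like Acta1 on this list is not particular to slow fibres, while the mean of the list was 13.18 in DN, 13.36 in TS and 13.55 in Ct. Of 4 blood cell markers, none was past 1.5-fold from Ct, with medians of -0.39 in DN and 0.23 in TS, and the haemoglobin gene Hbb read 10.58 in DN and 11.50 in TS, against 10.94 in Ct. Fibroblast markers had medians of 0.07 in DN and 0.00 in TS, and of the 6 only Pdgfra was past 1.5-fold, in TS. The 3 Schwann cell markers measured had medians of 0.00 in both, and Sox10 had the same value of 6.48 on all arrays. No marker on these cell type lists reads 0, since the scale has no zero level, and the lowest was the blood cell marker Slc4a1 at 5.37, under the filter limit.

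**Figure D4:**
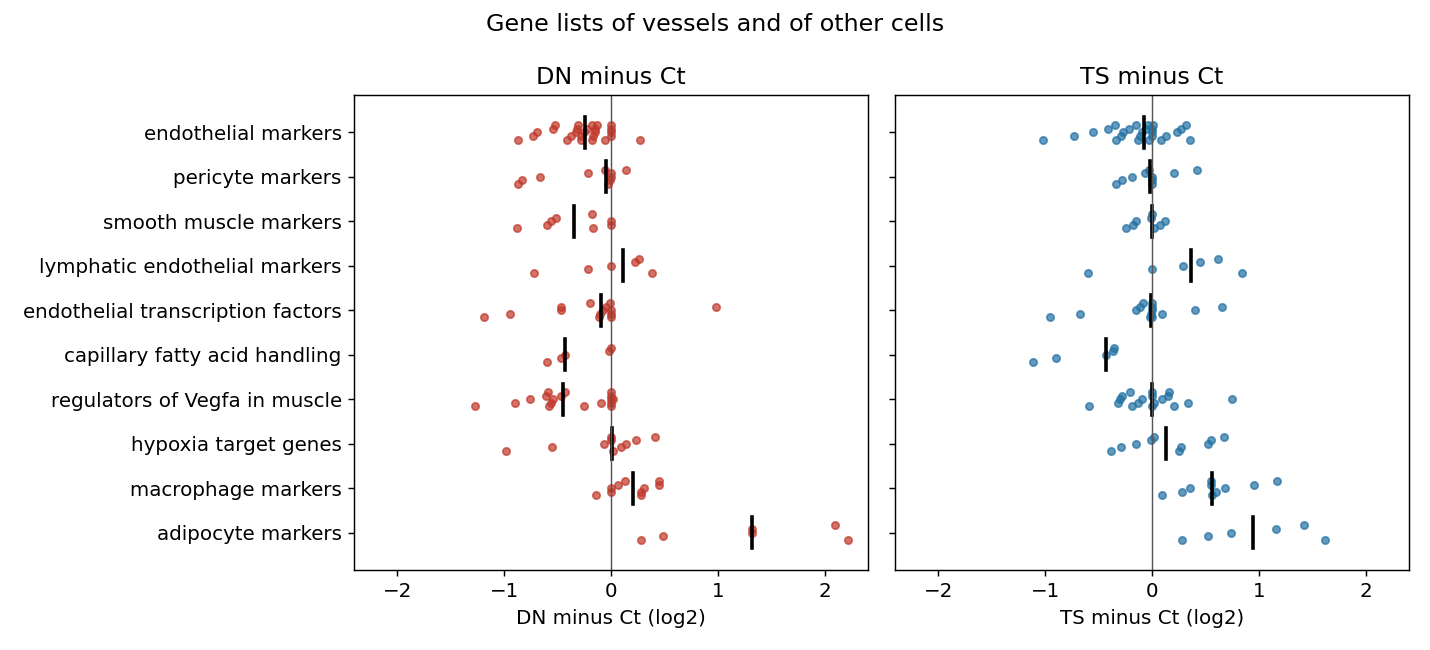
Differences from Ct (log2, horizontal axes) of the genes of 10 lists, 1 point for each gene, DN minus Ct on the left and TS minus Ct on the right, with black bars at the list medians. Endothelial, smooth muscle and regulator lists lie to the left of 0 in DN, at medians of -0.24, -0.35 and -0.45, and at -0.08, 0.00 and 0.00 in TS. Capillary fatty acid handling genes lie to the left in both, at medians of -0.43, while adipocyte markers lie to the right in both.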

How the data were processed

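Soleus RNA of 3 groups was measured on 1 array each. Per the labels, the deposited values were made by the authors with Affymetrix Expression Console by RMA in a core-exon analysis. The deposited log2 values run from 1.77 to 13.99; the base of the logarithm is not stated and was read as 2. Software version, annotation and genome build: not given in the sources used here.

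Of 29170 probe sets, 15310 had 1 gene symbol in the platform annotation, 323 several and 13537 none. The identifiers of 15279 were found in a GRCr8 gene table, and no symbol changed. A gene was represented by its brightest probe set. The comparison kept 10154 of 14506 genes, those with a mean over all arrays from the 30th percentile (5.72) upward.

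DN and TS were each set against Ct, and DN against TS, and differences were counted at 1.5-fold. With 1 array per group no test was made, and the number of arrays limits the precision. The member genes and the 21 other lists were chosen with earlier results of these data known. Of each list, the 4 genes with the largest difference from Ct were eligible to be named. For Vegfa, Kdr and Cspg4 the 5 closest genes were named, with uncharacterised loci, olfactory and vomeronasal receptors and microRNA genes passed over. Counts and medians of the lists as deposited include measured genes under the filter limit. Alternatives were 4 scalings (centring on the median of all probe sets or of the compared genes, loess, quantile), 32 added on the linear scale, other filters, probe set rules and limits; centring on the compared genes was added after seeing the data. The counting was tested on simulated data. Tools were Python 3.11.15, numpy 2.4.6, pandas 2.3.3, statsmodels 0.14.6 and matplotlib 3.10.9.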

Additional observations from a re-analysis of the deposited data

How the results depend on the processing

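The 4 genes lower in DN than in Ct, and the 2 lower in TS, were past 1.5-fold under all 4 scalings, with 32 added on the linear scale, without the filter and under both probe set rules. At the 50th percentile filter Cspg4 was left out, which leaves 3 genes lower in DN. At a limit of 2-fold the counts were 0 in DN against Ct, 1 in TS against Ct (Vegfa, lower) and 1 in DN against TS (Cspg4, lower), where 2.24%, 0.689% and 1.74% of all compared genes were lower. At a lower limit (0.322 on the log2 scale) the count for TS minus Ct was 4, with Vegfa, Kdr and Angpt1 lower and Cspg4 higher, where 6.62% of all compared genes were lower and 17.4% higher. At that limit the count for DN minus TS was 3, Flt1 and Cspg4 lower and Angpt1 higher, where 16.8% were lower and 7.1% higher. For DN minus TS the count of 2 came to 1 under each of the 4 scalings, with 32 added, and at the 50th percentile filter. Flt1 was the gene within the limit in the first 5 of these (between -0.57 and -0.46), and Cspg4 was left out by the filter in the last. Over these settings Vegfa lay between -0.99 and -0.95 from Ct in DN and between -1.33 and -1.16 in TS. Kdr lay between -0.88 and -0.84 and between -0.87 and -0.71, and Cspg4 in DN between -0.85 and -0.66. No called difference of the 9 genes changed sign, and 234 of 240 recomputed differences moved by less than 0.2 without crossing the limit. Each of the 9 genes has 1 probe set, so the filter and probe set settings could not change its difference. Many of the 240 were therefore bound to stay the same, and only the 4 scalings and the added 32 could move a difference. Centring on the compared genes takes 0.13 from every TS minus Ct difference. No paired analysis was possible because each group has 1 array, and for the same reason no replicate could be left out.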
